A study of Mus musculus with 7 samples.

Results

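Small nucleolar RNAs, Cajal body RNAs and Y RNAs were followed in mouse spleen monocytes stimulated with an antiphospholipid antibody or with agonists of Toll-like receptors. The RNAs were taken by name alone: a probe set was included when the array annotation gave it a single gene symbol starting with Snord, Snora, Scarna or Rny, at any level. This rule found 80 genes among 22180 with a single symbol. They comprised 47 box C/D small nucleolar RNAs (Snord), 26 box H/ACA small nucleolar RNAs (Snora), 5 Cajal body RNAs (Scarna) and 2 Y RNAs (Rny1 and Rny3). Scarna17, Snora19 and Snora33 had 2 probe sets each, of which the brighter on average was used. Another 46 probe sets carried a small RNA symbol beside other symbols and were left out, 16 of them of the imprinted Snord116 cluster, and no probe set of Snord115 was named singly.

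Small nucleolar RNAs guide the chemical modification of ribosomal RNA in the nucleolus. Box C/D RNAs direct 2'-O-methylation together with fibrillarin, Nop56, Nop58 and Snu13, and box H/ACA RNAs direct pseudouridylation together with dyskerin, Nhp2, Nop10 and Gar1, while Cajal body RNAs serve the spliceosomal RNAs. Most of them are cut out of introns of other genes, many of which encode ribosomal proteins or translation factors. Y RNAs have promoters of their own, are made by RNA polymerase III, and are bound by the proteins Ro60 and La, which are known autoantigens.

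RNA of 2 mice was hybridised to 7 Affymetrix Mouse Gene 2.0 ST arrays. Each mouse gave an unstimulated sample and a sample kept with HL7G, a monoclonal antiphospholipid antibody, at 400 ng/ml (n = 2 in each group). The agonist groups have 1 array each, all from mouse 1: R848 at 2 µg/ml, a small molecule that activates TLR7, CpG B at 2.5 µM, a DNA oligonucleotide that activates TLR9, and poly I:C at 1 µg/ml, which imitates double-stranded RNA and is sensed by TLR3. Stimulation lasted 3 h, and in every group the cells were wild-type for EPCR, which is the receptor of activated protein C on endothelium. The labels give no age or strain and no culture time for the unstimulated cells, and an IgG condition named in the protocol was not analysed here. The comparisons ask how the antibody changes monocyte RNA and how this relates to the agonists.

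Values are log2 expression levels as the authors deposited them, and a difference of 1 is 2-fold. Of 10 monocyte markers, Ly6c2 and Ccr2 were dim. They read at most 4.38 and 4.09 on the 7 arrays, against an array median over all probe sets of 4.40 to 4.54. The mean level of all 10 was above that median, at 4.89 to 5.05 on the unstimulated arrays and 5.21 to 5.23 on the HL7G arrays. Among the 10, 1 (Lyz2) was called higher. Of 10 B cell markers 8 were called higher with HL7G (mean level 4.86 and 5.10 unstimulated, 6.23 to 6.29 with HL7G), and of 9 T cell markers 3 were (5.09 and 5.22, against 6.0 to 6.04). No NK cell marker of 5 and 1 neutrophil marker of 7 (S100a8) was called. Of all genes 8.32% were called higher and 1.51% lower. Without the unstimulated array of mouse 1, described below, the median HL7G differences were 1.13 (B cell), 0.77 (T cell), 0.20 (monocyte), -0.12 (NK cell) and -0.14 (neutrophil). Whether these markers have a part in the small RNA differences was not tested, and in bulk RNA fewer cells of a type and less RNA per cell cannot be told apart.

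The unstimulated array of mouse 1 stood apart for the small RNAs. It read the lowest of the 7 arrays for 72 of the 80, against 17.6% of all genes. It lay at least 2-fold under the unstimulated array of mouse 2 for 65 of the 80, against 0.897% of all genes, with a median difference of -2.23 between these replicates of the same condition. By class, this held for 36 of 47 box C/D RNAs, 23 of 26 box H/ACA RNAs, all 5 Cajal body RNAs and 1 of 2 Y RNAs. The same array lay at least 2-fold lower for 3 of 8 other stable small RNAs and for 10 of 50 measured genes that contain small RNAs. Of 5 abundant messenger RNAs 4 were at least 2-fold lower there: Actb read 5.02 and 6.81 on the unstimulated arrays of mouse 1 and mouse 2 and Eef1a1 6.61 and 9.46, while Gapdh, the exception, read 9.13 and 8.75. Whether RNA quality has a part was not tested. Without this array limma called 2 genes in all with HL7G, Snord1b and Rps13, so that every other HL7G call below ended, and the difference is given without it for the small RNAs described one by one.

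The small RNAs as a group lay low in unstimulated cells and at similar levels on all 5 stimulated arrays. Their median level was 6.36 in mouse 1 and 8.98 in mouse 2 without stimulation. It was 9.76 and 9.79 with HL7G, 9.83 with R848, 9.55 with CpG B and 9.60 with poly I:C. The median over all genes hardly moved, from 4.57 to 4.64 over the 7 arrays. The unstimulated array of mouse 2, which is the higher of the pair, was below all 5 stimulated arrays for 50 of the 80 small RNAs, against 22.0% of all genes. Both unstimulated arrays were at least 2-fold below every stimulated array for 12 of them, against 1.12% of all genes: Rny1, Scarna10, Snora7a, Snord11, Snord110, Snord111, Snord1b, Snord35a, Snord52, Snord65, Snord91a and Snord92.

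**Figure D1:**
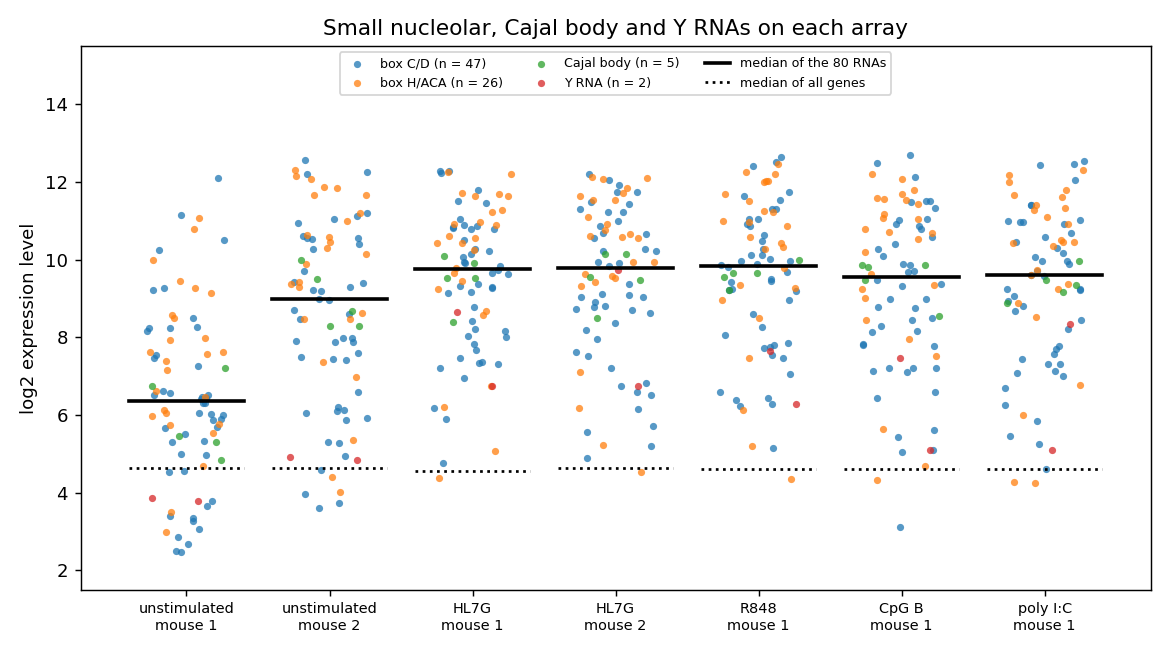
Log2 expression level of the 80 small RNAs (points, coloured by class) on each of the 7 arrays, with the median of the 80 (solid line) and of all genes (dotted line). The median of the 80 was 6.36 and 8.98 on the unstimulated arrays and 9.55 to 9.83 on the others.

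A set of box C/D RNAs and both Y RNAs rose after 3 h with HL7G, and no small RNA was called lower. With limma, 17 of the 80 were called higher and 0 lower at a Benjamini-Hochberg adjusted p under 0.05, where 9.83% of all genes were called (8.32% higher and 1.51% lower). The called RNAs were 13 of the 47 box C/D RNAs, 2 of the 26 box H/ACA RNAs, 0 of the 5 Cajal body RNAs and both Y RNAs. The median difference over the 80 was 1.83, against -0.12 over all genes, and both HL7G arrays were above both unstimulated arrays for 56 of the 80, against 25.6% of all genes. An unadjusted p under 0.05 in limma was reached by 51 of the 80, against 28.6% of all genes. These counts depended on the unstimulated arrays: without that of mouse 1 the median difference was 0.63, and all small RNA calls except that of Snord1b ended. All 17 stayed called with the mouse as a block. On values renormalised by cyclic loess the median difference was 0.22. Of the 17, 11 stayed called there, and 5 small RNAs were called lower (Snora16a, Snora73a, Snora75, Snord23 and Snord8). On quantile-normalised values the median difference was 0.98. There 12 of the 17 stayed called, and 2 small RNAs were called lower (Snord23 and Snord8). The shares of all genes above belong to the main fit and not to these refits.

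The largest rises among box C/D RNAs were those of Snord70 and Snord1b. Their unstimulated values were under the medians of those arrays over all probe sets (4.54 and 4.53), so the folds start from low signal. Snord70, which lies in an intron of Nop58, read 2.49 and 3.97 on the unstimulated arrays of mouse 1 and mouse 2, 7.31 and 9.36 on the HL7G arrays, and 6.22, 3.11 and 5.25 with R848, CpG B and poly I:C. The HL7G arrays were the highest of the 7 and the CpG B array lay between the unstimulated arrays. The rise with HL7G was 34.5-fold (log2 difference 5.11 ± 0.68 SE, n = 2 against 2, limma adjusted p = 0.00980), and the difference was 4.37 without the unstimulated array of mouse 1. Snord1b, in the noncoding host gene Snhg16, read 2.67 and 3.73 unstimulated, 8.20 and 8.18 with HL7G, and 6.45, 7.20 and 7.44 with the agonists. No stimulated array overlapped the unstimulated ones. Its rise was 31.8-fold (4.99 ± 0.33, limma adjusted p = 0.00783), and it was called in every setting tried, also without the unstimulated array of mouse 1 (4.46 ± 0.26, adjusted p = 0.0294).

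Snord111 lies in Sf3b3, which encodes a splicing factor subunit. It read 3.27 and 5.32 unstimulated, 9.15 and 8.64 with HL7G, and 7.54, 8.12 and 8.22 with the agonists, so that all stimulated arrays were above both unstimulated ones. It rose 24.2-fold (4.60 ± 0.58, limma adjusted p = 0.00942), with a difference of 3.58 without the unstimulated array of mouse 1. On that array Snord111 was under the median over all probe sets (4.54). Snord99, in the noncoding gene Snhg12, read 5.68 and 7.98 unstimulated, 9.90 and 10.70 with HL7G, and 9.25, 8.76 and 9.25 with the agonists. The groups again did not overlap, and the rise was 11.1-fold (3.47 ± 0.66, limma adjusted p = 0.0205), or 2.32 on the log2 scale without that array.

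For Snord35a and Snord110 the unstimulated arrays lay further apart than for the box C/D RNAs just described. Snord35a, in the ribosomal protein gene Rpl13a, read 4.98 and 8.60 unstimulated, 10.50 and 10.67 with HL7G, and 9.71 to 10.29 with the agonists. It rose by 3.79 ± 0.95 (limma adjusted p = 0.0487), close to the threshold, and lost its call with median centring, cyclic loess or quantile normalization (adjusted p = 0.0540, 0.0532 and 0.0575) and with a filter on the mean level (0.0581). Snord110, in the box C/D protein gene Nop56, read 6.02 and 9.19 unstimulated, 10.86 and 11.49 with HL7G, and 10.28 to 10.58 with the agonists. It rose by 3.57 ± 0.86 (limma adjusted p = 0.0416), and was not called with a filter on the mean level (0.0514) or a variance trend (0.0636). Snord92, in Wdr43, a gene of ribosome assembly, read 3.65 and 6.10 unstimulated, 7.82 and 7.63 with HL7G, and 7.57 to 8.27 with the agonists. It rose by 2.85 ± 0.66 (limma adjusted p = 0.0375), and was not called under cyclic loess (0.0989) or quantile normalization (0.0684). Without the unstimulated array of mouse 1 the differences of Snord35a, Snord110 and Snord92 were 1.99, 1.98 and 1.63, none of them called (limma adjusted p = 0.0973, 0.102 and 0.101).

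**Figure D2:**
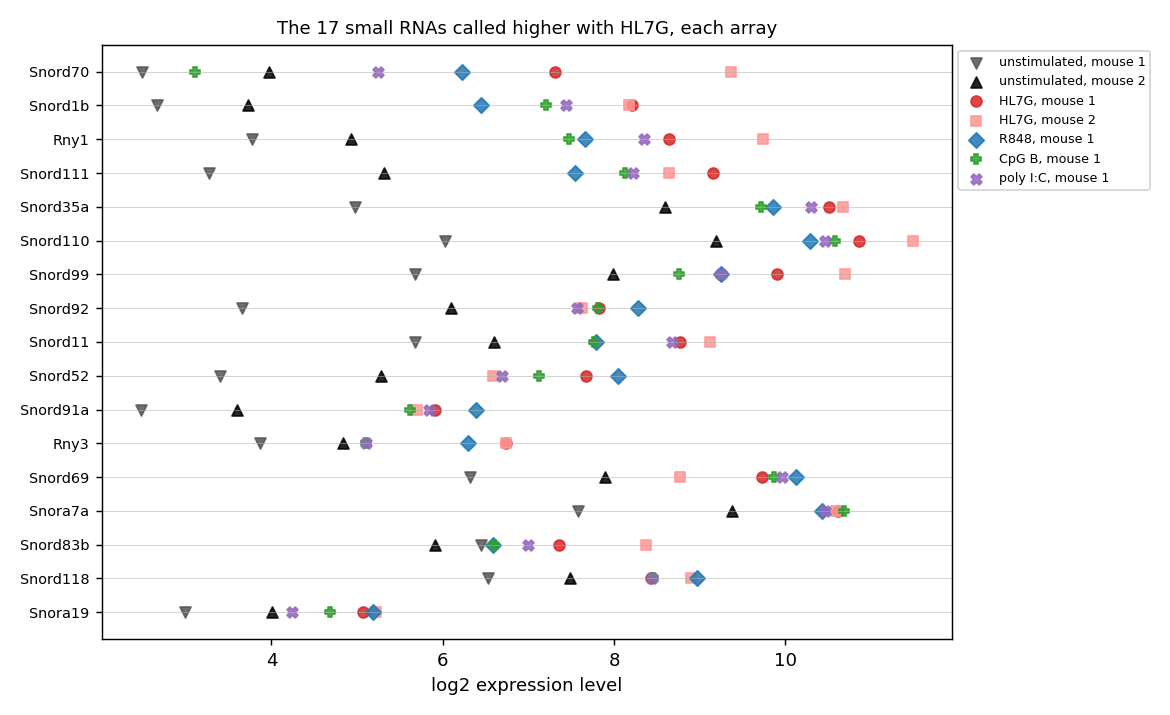
Log2 expression level on each of the 7 arrays for the 17 small RNAs called higher with HL7G, ordered by the size of the rise. In all 17 both HL7G arrays lie to the right of both unstimulated arrays, and in Snord70 the CpG B array lies between the unstimulated ones.

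The other called box C/D RNAs rose by 1.66 to 2.81. Snord11, the neighbour of Snord70 in Nop58, rose 7.01-fold (adjusted p = 0.00914), Snord52 by 2.79 and Snord91a by 2.77. Snord69 rose by 2.14 in the nucleolar GTPase gene Gnl3. Snord118, the U8 RNA needed to process the large ribosomal subunit's RNA, is not inside another gene. It read 6.52 and 7.48 unstimulated, 8.43 and 8.90 with HL7G, and 8.44 to 8.97 with the agonists, a rise of 1.66 ± 0.33 (limma adjusted p = 0.0238). Snord83b, in the ribosomal protein gene Rpl3, rose more in mouse 2 than in mouse 1, as Snord70 did: it read 6.44 and 5.92 unstimulated and 7.36 and 8.37 with HL7G (1.69 ± 0.35, adjusted p = 0.0260). Without the unstimulated array of mouse 1, limma's call was lost for 16 of the 17, and none of the 17 changed sign. The differences were then 2.35 for Snord11, 1.85 for Snord52, 2.21 for Snord91a, 1.35 for Snord69, 1.18 for Snord118 and 1.95 for Snord83b. Cyclic loess, quantile normalization or a variance trend also ended the calls of Snord69, Snord118, Snord83b and Snora7a in at least 1 of these settings.

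Both Y RNAs rose. Rny1 read 3.78 and 4.93 unstimulated, 8.64 and 9.74 with HL7G, and 7.66, 7.47 and 8.35 with R848, CpG B and poly I:C. Its unstimulated value in mouse 1 was under the median of that array over all probe sets (4.54). The groups did not overlap, and Rny1 rose 28.6-fold with HL7G (4.84 ± 0.45, limma adjusted p = 0.00906), by 4.87 in mouse 1 and 4.81 in mouse 2. Rny3 read 3.87 and 4.84 unstimulated, 6.74 on both HL7G arrays, 6.29 with R848 and 5.10 with both CpG B and poly I:C. It rose 5.22-fold with HL7G (2.38 ± 0.31, limma adjusted p = 0.00962). The CpG B and poly I:C arrays were above the unstimulated array of mouse 2 by 0.26 only. Without the unstimulated array of mouse 1 the differences were 4.26 ± 0.46 for Rny1 and 1.90 ± 0.26 for Rny3 (limma adjusted p = 0.0973 for each), no longer called.

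Among box H/ACA RNAs, Snora7a and Snora19 rose. Snora7a, in Rpl32, read 7.58 and 9.38 unstimulated, 10.62 and 10.59 with HL7G, and 10.43 to 10.68 with the agonists (2.13 ± 0.50, limma adjusted p = 0.0392). Snora19, in the translation initiation factor gene Eif3a, read 2.99 and 4.01 unstimulated and 5.07 and 5.22 with HL7G (1.64 ± 0.32, adjusted p = 0.0226), and its 2 probe sets held identical values. When the unstimulated array of mouse 1 was left out, the differences were 1.23 and 1.14. The class median was 1.67, and 0.25 in mouse 2. The probe sets of Snora33 differed: the brighter read 0.65 higher with HL7G, and the dimmer, not used, 3.49 higher.

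No Cajal body RNA was called. Scarna6, in the autophagy gene Atg16l1, read 5.45 and 8.30 unstimulated and 9.54 and 10.15 with HL7G (2.97 ± 0.78, limma adjusted p = 0.0538). Scarna10 read 4.84 and 8.28 against 9.90 and 9.47 (3.13 ± 0.92, adjusted p = 0.0737), Scarna2 6.74 and 8.69 against 9.53 and 9.55 (1.83 ± 0.54, adjusted p = 0.0731), and Scarna17 7.21 and 9.49 against 10.10 and 10.16 (1.78 ± 0.62, adjusted p = 0.112). In these 4 RNAs both HL7G arrays were above both unstimulated arrays. Scarna8 overlapped: it read 5.29 and 9.99 unstimulated and 8.39 and 8.50 with HL7G (0.80 ± 1.23, adjusted p = 0.683). Without the unstimulated array of mouse 1 the differences of Scarna6, Scarna10, Scarna2 and Scarna17 were 1.55, 1.40, 0.86 and 0.64, and that of Scarna8 was -1.55. Scarna6, Scarna10 and Scarna2 were called when the mouse was fitted as a block, at limma adjusted p = 0.0143, 0.0443 and 0.0386.

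Some small RNAs read nearly alike on all arrays as deposited. Snord15a, in Rps3, stayed between 10.23 and 10.63 (HL7G difference -0.07 ± 0.19), Snord123 between 4.61 and 5.15 (-0.13 ± 0.19), and Snora35, in the serotonin receptor gene Htr2c, between 4.27 and 4.68 (-0.08 ± 0.20). For Snord15a this depended on the scaling: its difference was -1.91 under cyclic loess and -0.99 under quantile normalization, neither called (limma adjusted p = 0.0787 and 0.0521). Snord123 was the single small RNA whose HL7G arrays were both below the unstimulated ones, which held for 38.0% of all genes. Of these 3, Snora35 and Snord123 had mean levels under 5, as did Snora19.

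The brightest RNAs differed little between mice and treatments, apart from the unstimulated array of mouse 1. Snord22, Snord49b, Snora21, Snord87, Snord55 and Snora33 had mean levels of 11.74 to 12.18, and their HL7G differences were between 0.20 and 1.24, with none called. In mouse 2, 5 of these 6 read lower with HL7G. Snord55 alone read higher on the unstimulated array of mouse 1 (12.09) than on any other array. For all except Snora33 and Snord55 the difference turned negative without that array, and for all 6 it turned negative under cyclic loess.

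The size of the difference was unlike between the mice. The mean level of the 80 was 9.43 to 9.47 on the HL7G arrays. It was 6.48 and 8.65 on the unstimulated arrays, lower in mouse 1. With a single array of each kind per mouse, animal and array cannot be told apart. In mouse 1 the median over the 80 was 3.17, and 70 were at least 2-fold higher with HL7G, against 12.1% of all genes, and 0 at least 2-fold lower, against 2.76%. In mouse 2 the median was 0.63, and 23 were at least 2-fold higher, against 4.86% of all genes. Of these, 22 were 2-fold higher in both mice (4.37% of all genes), and the exception was Snord83b. The difference was larger in mouse 1 for 74 of the 80.

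In mouse 2, 20 of the 80 read lower with HL7G than without, where 53.5% of all genes did. They were 9 box H/ACA RNAs, 10 box C/D RNAs and Scarna8. At least 2-fold lower were Snord37 and Scarna8 (1.02% of all genes). Snord37, in the elongation factor gene Eef2, read 4.54 and 7.88 unstimulated, 8.17 and 5.55 with HL7G, and 9.67, 8.17 and 7.70 with the agonists. Its HL7G arrays differed by more than the group difference (0.66 ± 1.11, limma adjusted p = 0.711). Across the 80 RNAs, which share the same 4 arrays, the differences in the mice had Spearman's rho = 0.46 (Pearson's r = 0.43), and across all genes rho was 0.60 (r = 0.73).

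**Figure D3:**
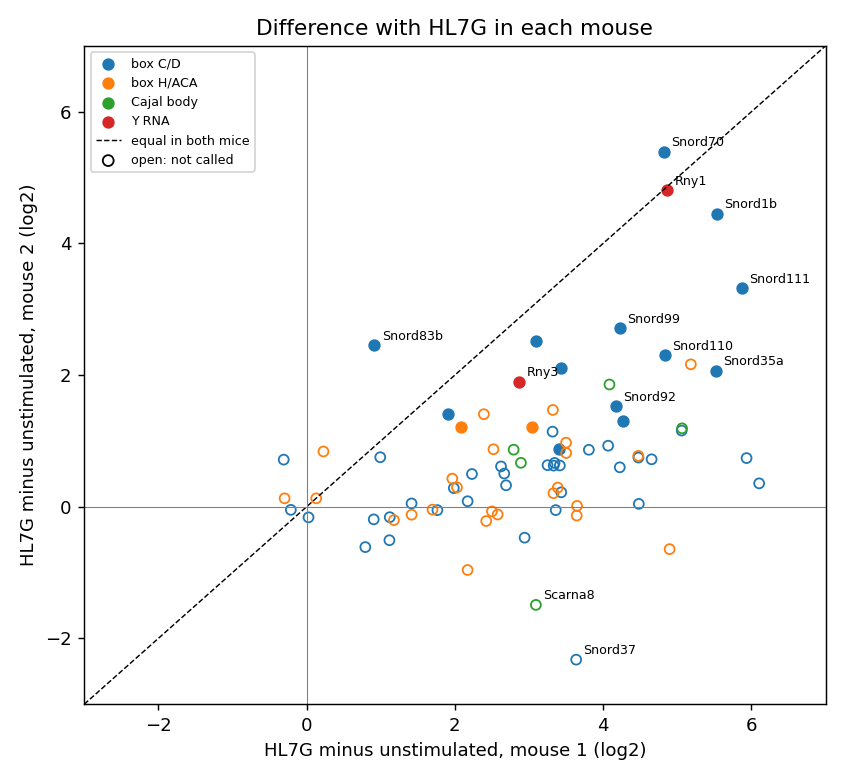
HL7G minus unstimulated (log2) in mouse 1 (horizontal axis) and mouse 2 (vertical axis) for the 80 small RNAs, filled where called by limma, with the dashed line marking equal differences. Of the 80 points 74 lie under the line, and Snord70 and Snord83b lie above it.

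The called RNAs were mostly short. Gene lengths in RefSeq (GRCm38.p6) ran from 48 to 248 bases, with a median of 83.5. Of the 40 RNAs at or under that length 12 were called, and of the 40 longer ones 5 were, where 9.83% of all genes were called. These counts were 1 and 0 without the unstimulated array of mouse 1. In mouse 2 the median difference was 0.74 in the shorter set and 0.13 in the longer one. Across the 80 RNAs, rho between length and difference was -0.26 in mouse 1 and -0.34 in mouse 2, and rho between mean level and difference was -0.12 and -0.44. Length and class are linked, since box H/ACA RNAs are the longer kind, and their parts in this were not tested.

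Most of these RNAs lie inside other genes: 74 were within the RefSeq span of another gene, and Rny1, Rny3, Scarna2, Snord118, Snord13 and Snord89 were not. Of these 6, 3 were called, and all 6 read higher with HL7G in both mice, by at least 0.72 in mouse 2. A containing gene was measured for 63 small RNAs, and these were 50 different genes, since 25 of the 80 RNAs share 11 containing genes. Of the 50 genes 27 were called higher with HL7G and 0 lower, against 8.32% and 1.51% of all genes, with a median difference of 1.30. None of the 50 was called without the unstimulated array of mouse 1, and their median difference was 1.02. Of 12 called small RNAs with a measured containing gene, 6 had that gene called too.

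Small RNAs and their containing genes differed by unlike amounts. Across the 63 RNAs, rho between the small RNA and its gene was 0.21 in mouse 1 and -0.08 in mouse 2, both from the same arrays. In Nop58, which encodes a box C/D core protein, the gene differed by 3.50 in mouse 1 and 1.42 in mouse 2, Snord70 by 4.82 and 5.39, and Snord11 by 3.10 and 2.52. In Ncl, the nucleolin gene, the gene differed by 4.83 and 1.90, Snord82 by 3.25 and 0.63, and Snora75 by 1.70 and -0.04. In the noncoding gene Snhg12 the gene differed by 1.42 and 0.28, Snord99 by 4.22 and 2.71, Snora44 by 2.39 and 1.41, Snora61 by 2.52 and 0.87, and Snora16a by 2.17 and -0.96. RNAs from the same host thus ranged from a call (Snord99) to a negative difference in mouse 2 (Snora16a).

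Further hosts also differed from their small RNAs. Kansl2 differed by 1.03 and 0.18, and Snora2b in it by 5.18 and 2.16. Eef2 differed by 3.68 and 1.08, against 3.64 and -2.32 for Snord37. In Rpl3 (0.50 and 0.62), Snord43 differed by 0.99 and 0.75 and Snord83b by 0.91 and 2.46. Probe sets of a host may lie on exons or on the small RNA itself, and their positions were not given in the sources used here.

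**Figure D4:**
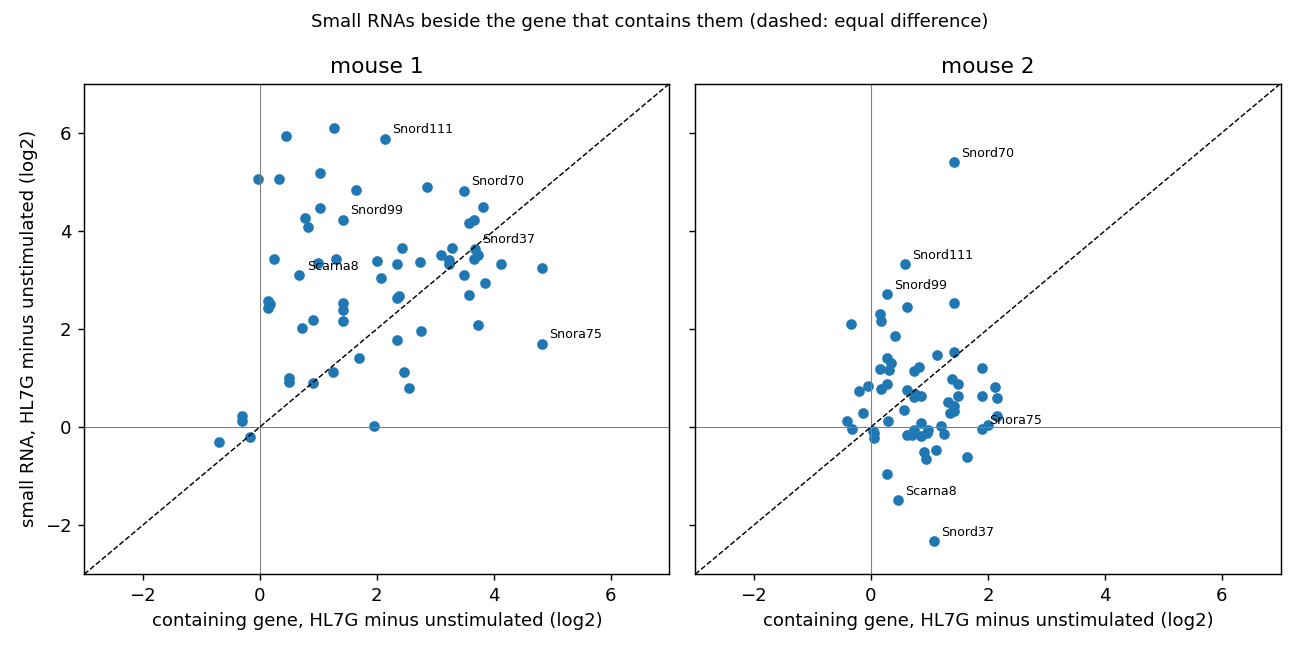
HL7G minus unstimulated (log2) of each small RNA (vertical axis) against that of the gene containing it (horizontal axis), in mouse 1 (left) and mouse 2 (right), with the dashed line marking equal differences. In mouse 2 Snord70, Snord111 and Snord99 lie far above the line and Snord37 and Scarna8 far under 0.

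Genes that host small nucleolar RNAs often belong to the class with a terminal oligopyrimidine tract, an unbroken run of C and T at the start of the transcript. The starts of the hosts of the 8 largest called rises are shown because that class is read from these letters; Rny1 has no host, which leaves 7. Each line gives 60 bases of RefSeq (GRCm38.p6), 30 before and 30 from the annotated start, 5′ to 3′ on the gene's strand. Capitals mark the longest run of C or T found on that strand from 10 bases before to 25 after the start.
Nop58, host of Snord70 (chr1:59684976-59685035, + strand): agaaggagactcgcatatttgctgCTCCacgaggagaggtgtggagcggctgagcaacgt
Snhg16, host of Snord1b (chr11:116671630-116671689, + strand): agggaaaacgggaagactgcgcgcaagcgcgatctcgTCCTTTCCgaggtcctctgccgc
Sf3b3, host of Snord111 (chr8:110846774-110846833, - strand): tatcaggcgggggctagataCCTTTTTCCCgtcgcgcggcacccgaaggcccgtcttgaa
Rpl13a, host of Snord35a (chr7:45128716-45128775, - strand): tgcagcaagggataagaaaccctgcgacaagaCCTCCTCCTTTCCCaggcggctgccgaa
Nop56, host of Snord110 (chr2:130274382-130274441, + strand): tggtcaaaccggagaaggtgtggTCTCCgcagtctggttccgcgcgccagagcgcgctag
Snhg12, host of Snord99 (chr4:132308648-132308707, + strand): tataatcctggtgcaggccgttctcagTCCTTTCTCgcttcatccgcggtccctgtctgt
Wdr43, host of Snord92 (chr17:71616185-71616244, + strand): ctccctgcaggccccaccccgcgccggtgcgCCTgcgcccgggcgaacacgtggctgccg

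A run of at least 8 was present in 4 of the 7 windows: 14 bases in Rpl13a, 10 in Sf3b3, 9 in Snhg12 and 8 in Snhg16. Their positions differed. The run of Sf3b3 lay wholly before the annotated start, and that of Snhg12 began 3 bases before it. Those of Rpl13a and Snhg16 began at bases 3 and 8 of the transcript. The same search found such a run in 12.97% of the 32851 start windows of the RefSeq table. Nop58, Nop56 and Wdr43, whose longest runs were 4, 5 and 3 bases, hosted RNAs that rose as well. The match describes letters around the annotated start and does not place a gene in the class.

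Of 29 measured genes for proteins that build, hold or trim these RNAs, 6 were called higher with HL7G and 0 lower, against 8.32% and 1.51% of all genes, with a median difference of 0.57. None of the 29 was called without the unstimulated array of mouse 1, and the median was 0.53. Of the box C/D core, Nop58 rose by 2.46 ± 0.58 (limma adjusted p = 0.0406), while Nop56 differed by 0.90 (0.242) and Snu13 by 0.49 (0.419), and fibrillarin was not measured singly. Of the box H/ACA core, Nhp2 rose by 1.14 ± 0.27 (adjusted p = 0.0403), while Dkc1, the dyskerin gene, differed by 1.46 (0.104), Gar1 by 0.77 (0.141) and Nop10 by 0.35 (0.434). Of the assembly factors Znhit6 rose by 1.30 (adjusted p = 0.0252), and the nucleolar chaperone gene Nolc1 differed by 1.73 (0.178). The exonuclease genes Xrn2 and Exosc10, which trim and degrade nuclear RNA, rose by 2.62 (adjusted p = 0.0123) and 1.32 (0.0228), and Dis3 differed by 1.47 (0.0593).

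The partners of the Y RNAs were split. Ssb, which encodes La, read 4.42 and 5.44 unstimulated and 7.87 and 6.87 with HL7G, a rise of 2.44 ± 0.41 (limma adjusted p = 0.0156). Ro60 read 5.24 and 5.25 unstimulated and 4.99 and 5.15 with HL7G, and was not called (-0.18 ± 0.19, adjusted p = 0.547).

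Other small RNAs gave a mixed picture, where 8.32% of all genes were called higher with HL7G and 1.51% lower. Of 8 further stable RNAs, Terc, the telomerase RNA (0.91, limma adjusted p = 0.0465), and Vaultrc5, a vault RNA (1.34, 0.0175), rose, and Rnu11, of the minor spliceosome, fell by 1.46 ± 0.35 (0.0398). Rn7sk and Rpph1 were not called (1.08 and 1.69). Of 483 microRNA genes 9 were called higher and 18 lower, against the same 8.32% and 1.51% of all genes. Their median difference, -0.13, was close to that of all genes. The microRNA genes were dim, with mean levels of 3.88 to 4.09, under the array medians over all probe sets (4.40 to 4.54).

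With the agonists most small RNAs also read above the unstimulated mean, but no RNA and no gene was called. The difference was above 0 for 79 of the 80 with R848, 73 with CpG B and 77 with poly I:C, with medians of 1.97, 1.55 and 1.70. The medians over all genes were -0.04, -0.06 and -0.06. In limma 0 of 22180 genes were called with each agonist (0.0%), and an unadjusted p under 0.05 was reached by 41, 28 and 30 of the 80, against 19.0%, 10.8% and 7.89% of all genes. The smallest adjusted p of a small RNA was 0.0640, 0.105 and 0.169, each time that of Snord1b. These comparisons share the unstimulated arrays with that of HL7G. Without the unstimulated array of mouse 1 the medians were lower, at 0.77, 0.44 and 0.48.

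Against the higher unstimulated array, that of mouse 2, 29 small RNAs were at least 2-fold higher with R848, 21 with CpG B and 21 with poly I:C. The shares of all genes were 5.35%, 3.18% and 2.25%. At least 2-fold lower was Scarna8 alone with CpG B (0.613% of all genes) and with poly I:C (0.325%), and no small RNA with R848 (1.86%). Against both unstimulated arrays, 29, 20 and 19 small RNAs were 2-fold higher, where 4.62%, 2.75% and 1.97% of all genes were.

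Snord72, in Rpl37, was among the 4 largest differences with each agonist. It read 3.06 and 7.59 unstimulated and 9.46, 8.79 and 9.07 with R848, CpG B and poly I:C (4.13 ± 1.5, 3.46 ± 1.5 and 3.75 ± 1.5). Its unstimulated arrays were further apart than these differences. Snord111 and Snord1b were among the 4 with CpG B (3.83 ± 0.70 and 4.0 ± 0.40) and poly I:C (3.93 ± 0.70 and 4.24 ± 0.40). Snord52 (3.70 ± 0.72), Snord58b (3.53 ± 1.5) and Snord37 (3.47 ± 1.36) were among them with R848, Snord58b also with CpG B (3.72 ± 1.5), and Rny1 with poly I:C (3.99 ± 0.55). With the mouse as a block, 2 small RNAs were called with R848 and 1, Rny1, with poly I:C.

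The smallest differences were close to 0 for most of these RNAs. The lowest 4 with R848 were Snora35 (-0.19), Snord55 (0.08), Snord123 (0.19) and Snord15a (0.31). With CpG B they were Snord85 (-0.57), Snord88c (-0.29), Snora35 (-0.21) and Snord55 (-0.14). Snord85 read 7.47 with R848, 5.04 with CpG B and 6.25 with poly I:C, each on a single array, against 5.34 and 5.87 unstimulated. Its HL7G replicates lay apart too: the HL7G difference was 1.72 without the HL7G array of mouse 2 and 0.55 without that of mouse 1. With poly I:C the lowest were Snord123 (-0.35), Snora35 (-0.27), Snora47 (-0.03) and Snord15a (0.28).

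Without a term for the mouse, the small RNAs had about the same median level with HL7G as with the agonists. These differences do not use the unstimulated arrays. The median difference between the HL7G mean and the mean of the 3 agonist arrays was -0.04 over the 80 RNAs and -0.02 over all genes. With the mouse as a block it was -0.51 over the 80, and 20 of them changed sign. That fit takes the gap between the mice from the unstimulated pair as well as the HL7G pair. Limma called 0 small RNAs and 0 of 22180 genes (0.0%), and 6 of the 80 reached an unadjusted p under 0.05, against 9.44% of all genes. These were Rny1, Rny3, Snord11, Snord1b, Snord70 and Snord83b, and the smallest adjusted p was 0.319. These p-values do use the unstimulated pair, which gives 1 of the 2 residual degrees of freedom. Both HL7G arrays were above all 3 agonist arrays for 17 of the 80 (13.4% of all genes) and below them for 8 (13.6%).

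At least 2-fold above the agonist mean were 6 small RNAs, against 0.6% of all genes. Snord70 had the largest difference, with 7.31 and 9.36 on the HL7G arrays and 6.22, 3.11 and 5.25 with the agonists (3.47 ± 0.62, limma adjusted p = 0.319). It was the single small RNA called when either HL7G array was left out (4.50 without mouse 1 and 2.45 without mouse 2, adjusted p = 0.0270 and 0.0356), where the unstimulated pair alone gave the residual degree of freedom. Rny1 was higher by 1.37 ± 0.41, Rny3 by 1.24 ± 0.28, Snord99 by 1.21 ± 0.60, Snord1b by 1.16 ± 0.30 and Snord83b by 1.14 ± 0.35. In all 6 both HL7G arrays were above all 3 agonist arrays. At least 2-fold below was Snord37 alone (-1.65 ± 1.02, against 0.018% of all genes), with HL7G arrays at 8.17 and 5.55. The next lowest were Snord69 (-0.73), Snora16a (-0.60) and Scarna8 (-0.59). The agonist arrays all came from mouse 1, so for the HL7G array of mouse 2 animal and treatment cannot be told apart. With the mouse as a block, Snord70 (2.59) and Snord83b (1.02) were at least 2-fold above the agonist mean, against 0.816% of all genes, while Rny3, Snord1b, Rny1 and Snord99 were higher by 0.998, 0.90, 0.81 and 0.44. At least 2-fold below in this fit were 13 of the 80, against 0.113% of all genes, led by Snord37 (-1.83), Scarna8 (-1.79) and Snora15 (-1.67). The mouse term of the fit also uses the unstimulated pair. In that pair mouse 1 lay at least 2-fold lower for 65 of the 80, against 0.897% of all genes. The 13 are thus not a difference between HL7G and agonist arrays alone. No small RNA was called in the block fit.

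**Figure D5:**
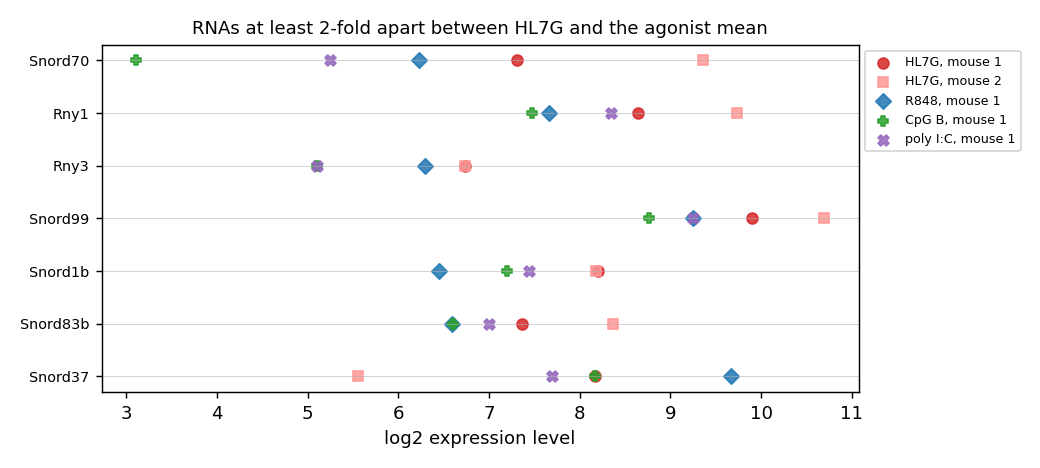
Log2 expression level on the 2 HL7G arrays and the 3 agonist arrays for the 7 small RNAs at least 2-fold apart between the HL7G mean and the agonist mean. The HL7G arrays lie to the right of all agonist arrays in 6 of them, and in Snord37 the HL7G array of mouse 2 lies lowest at 5.55.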

How the data were processed

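TRIzol was used to extract the RNA and the WT PLUS kit to prepare it, per the labels' protocols. The authors deposited log2 expression levels of 41345 probe sets for each array. RMA, Affymetrix Expression Console and Transcriptome Analysis Console are named in the submitters' processing notes. Versions and the genome build were not given in the sources used here. Annotation of the platform gave 1 symbol to 23521 probe sets, several to 1814 and none to 16010. The brightest probe set per symbol was kept, with no filter on level.

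All 7 arrays entered 1 limma 3.58.1 fit (R 4.3.3) with 5 groups. The fit was also run on simulated arrays with a common spread for all genes and no deviating array. That run does not bear on the unstimulated array of mouse 1. Tests were 2-sided, with Benjamini-Hochberg adjustment over 22180 genes and calls at an adjusted p under 0.05. Errors are standard errors. With 2 residual and 5.475 prior degrees of freedom, the number of arrays limits the precision, and single agonist arrays were assumed to vary like the other groups. The replicate numbers pair the samples because each is the number of 1 animal in the labels. Across genes the deviations of the unstimulated and HL7G arrays of a mouse had r = -0.12.

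Named small RNAs were the 8 largest called rises, the 4 largest differences each way per agonist and for HL7G against the agonists, the 6 brightest, and all Y and Cajal body RNAs, with their hosts. Named machinery genes were the core proteins, the Y RNA partners Ro60 and Ssb, and up to 4 others with the largest HL7G differences. RNAs and genes named beyond this (the other called RNAs, Znhit6, examples of hosts and of differences between mice) were chosen after their values were seen. The members and lists were chosen with earlier results of these data known. Containing genes were found by RefSeq gene span (GRCm38.p6) without strand, which the table used here did not give. Alternatives were filters on level, other probe set summaries, median centring, cyclic loess, quantile normalization, a variance trend, the mouse as a block, the 4 HL7G and unstimulated arrays alone, and leaving out each replicated array.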

Additional observations from a re-analysis of the deposited data

How the results depend on the processing

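In the main fit 17 small RNAs were called with HL7G. The total was 14 to 19 under the filters on level, the probe set summaries, the centring, the normalizations and the variance trend. Of the 17 themselves, 11 stayed called under cyclic loess, 12 under quantile normalization and 13 under the variance trend. Both normalizations also called some small RNAs lower. Leaving out an array gave 1 to 61 called small RNAs and 2 to 4072 called genes, the lowest without the unstimulated array of mouse 1. With the replicate block, which pairs arrays of the same mouse, 28 small RNAs were called with HL7G, 2 small RNAs and 2 genes with R848, and 1 small RNA and 1 gene with poly I:C, and the median of HL7G against the agonists was -0.51. It was -0.18 with cyclic loess and -0.23 with quantile normalization. Of the genes called with HL7G, 84.6% were higher, against 76.7% with cyclic loess and 64.7% with quantile normalization. Quantile normalization called 6, 2 and 2 small RNAs and 747, 117 and 17 genes with R848, CpG B and poly I:C. With R848, cyclic loess called 21 genes, and the variance trend 1 small RNA and 8 genes. Leaving out an unstimulated array gave 0 to 49, 0 to 42 and 0 to 46 small RNAs and 0 to 111, 0 to 80 and 0 to 83 genes for the agonists in that order. For HL7G against the agonists, leaving out an array gave 0 to 1 small RNA and 0 to 361 genes. Its fits without an unstimulated array were chosen after seeing the data. The causes were not tested.

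Of the 80 small RNAs, 31, 22, 23 and 24 turned sign under cyclic loess and 10, 5, 5 and 5 under quantile normalization (HL7G, R848, CpG B and poly I:C against unstimulated), and 19, 3, 16 and 14 without the unstimulated array of mouse 1. For HL7G against the agonists 20 did with the replicate block. The values that follow are for the small RNAs named by the rule for each comparison. Under cyclic loess, these turned sign with HL7G: Scarna8 at -0.71, Snora16a at -1.42, Snora21 at -1.68, Snora33 at -1.45, Snora35 at 0.074, Snora47 at -0.90, Snord22 at -1.88, Snord37 at -0.55, Snord49b at -1.31, Snord55 at -1.90, Snord87 at -0.89 and Snord88c at -0.66, with R848 Snord15a at -1.47 and Snord55 at -1.98 and with poly I:C Snord15a at -1.42. Under quantile normalization, these turned sign with HL7G: Snora16a at -0.41, Snora21 at -0.14, Snora33 at -0.064, Snora47 at -0.64, Snord22 at -0.40, Snord55 at -0.41 and Snord88c at -0.32, with R848 Snord15a at -0.48 and Snord55 at -0.50 and with poly I:C Snord15a at -0.48. With the replicate block, these turned sign: with R848 Snord55 at -0.11, with CpG B Snord88c at 0.12 and with poly I:C Snora47 at 0.14. Leaving out 1 array in turn, these crossed 0: with HL7G Scarna8 -1.55 to 3.15, Snora16a -0.60 to 1.81, Snora21 -0.12 to 1.10, Snora35 -0.23 to 0.058, Snora47 -0.048 to 0.31, Snord15a -0.14 to 0.0072, Snord22 -0.40 to 1.01, Snord37 -1.01 to 2.33, Snord49b -0.016 to 1.73, Snord55 -0.24 to 0.65, Snord87 -0.23 to 2.70 and Snord88c -0.32 to 1.04, with R848 Snord55 -0.36 to 0.53, with CpG B Snord55 -0.58 to 0.31 and Snord88c -0.97 to 0.39 and with poly I:C Snora47 -0.21 to 0.14.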
